A study of Mus musculus with 2 samples.

Results

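The mouse mitochondrial genome carries 37 genes, and all 37 were listed among the 53801 genes of the count table of each library. They were taken as every listed gene on chromosome MT, without regard to level. The group comprised 13 mRNA genes, 2 rRNA genes and 22 tRNA genes.

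RNA was measured in microglia sorted from the brains of 2 mice, with 1 library per mouse (library 1 and library 2). The mice were hemizygous for Cx3cr1(CreER/wt) on the C57BL/6 background, labelled WT, and described in the labels as males of 8 to 10 weeks, whereas the study's methods give older mice of both sexes. All received tamoxifen at 75 mg/kg/day for 4 days, with surgery 14 days after the first injection, and the ipsilesional left hemisphere was taken 3 days after a sham operation. The sample titles name sham surgery, while the treatment field reads none. Mononuclear cells were gated as CD11c–Ly6G–CD11b+CD45low. As a model, the mice carry the inducible Cre in 1 of the 2 Cx3cr1 alleles, and the Cx3cr1 promoter is also active in other macrophages and in monocytes. The stroke arm was not analysed here, so there was no condition to compare, no test was run, and each value describes these 2 mice.

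Mitochondrial DNA is transcribed from both strands into long polycistronic RNAs. The tRNAs punctuate the mRNAs and rRNAs, and their excision releases the flanking RNAs, most of which are then polyadenylated. The mRNAs encode core subunits of the respiratory chain and of ATP synthase, and the rRNAs are the RNA components of the mitochondrial ribosome. Nearly all mRNAs and both rRNAs read along the plus strand of the annotation, whereas mt-Nd6 and a minority of the tRNAs read along the minus strand. Fragments of mitochondrial DNA have also been copied into nuclear chromosomes in evolution. The cDNA was primed on poly(A) and the libraries were built by tagmentation, a procedure that does not keep the strand of the RNA.

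Library 1 held 23381026 counts on genes and library 2 held 41142609. Levels are counts scaled to a total of 1000000 on genes (CPM). Where a gene was at 0, the upper limit is 3 counts, which is 0.128 CPM at the depth of library 1 and 0.0729 CPM at that of library 2. Intervals and limits cover counting error only, since reads were counted without molecular identifiers. The 10 microglial markers were counted in both libraries and summed to 39111 CPM and 44410 CPM. Markers of immature neutrophils summed to 1957 CPM and 32586 CPM, and those of mature neutrophils to 3196 CPM and 33078 CPM, although the gate leaves out cells with Ly6G. All 10 of the former and 8 of the 9 latter were over 2-fold higher in library 2. Choroid plexus markers summed to 24.3 CPM and 370.0 CPM, markers of basophils or mast cells held 2 and 6881 counts, and erythroid markers 5 and 616 counts. Markers of neurons (3.08 CPM and 5.15 CPM), astrocytes (225 CPM and 173 CPM) and oligodendrocytes (233 CPM and 239 CPM) differed less. In sorted bulk samples, fewer cells of a type and less RNA per cell cannot be told apart.

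The sequences that bear on the levels are shown first. A stretch of mitochondrial sequence, MT:6394-11042 (GRCm38, 4649 bases), begins inside mt-Co1 and ends inside mt-Nd4. Annotated transcripts on chromosome 1 match it in the same order, with gaps between them in which the chromosome 1 sequence was not read. The edges of the match are shown in the pair below, in which capitals mark bases that lie in 75-base windows identical to a nuclear transcript. They are mt-Co1, MT:6354-6433, plus strand, shared with Gm29216, and mt-Nd4, MT:11003-11082, plus strand, shared with Gm28439.
mt-Co1: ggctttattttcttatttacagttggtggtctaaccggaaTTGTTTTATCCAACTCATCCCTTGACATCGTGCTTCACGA
mt-Nd4: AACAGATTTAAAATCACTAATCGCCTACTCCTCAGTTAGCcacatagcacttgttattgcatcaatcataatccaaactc

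The 5′ ends of mt-Co3 (MT:8607-8681, plus strand) and mt-Nd3 (MT:9459-9533, plus strand) show genes that lie within the match, to Gm28437 and Gm28438, with capitals as above. The 3′ end of mt-Atp8 (MT:7895-7969, plus strand) is shown because its capitals mark the 43 bases that it shares with the start of mt-Atp6.
mt-Co3: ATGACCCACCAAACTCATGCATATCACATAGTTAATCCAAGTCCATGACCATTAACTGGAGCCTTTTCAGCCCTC
mt-Nd3: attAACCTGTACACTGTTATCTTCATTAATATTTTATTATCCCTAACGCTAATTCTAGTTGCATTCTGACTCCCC
mt-Atp8: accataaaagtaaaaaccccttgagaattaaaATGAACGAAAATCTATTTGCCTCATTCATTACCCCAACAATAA

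The 4 tRNA genes of highest count are also shown, with the plus-strand genes mt-Tm and mt-Tt next to them in the genome for contrast. They are mt-Tq (MT:3772-3842, minus strand), mt-Tp (MT:15356-15422, minus strand), mt-Te (MT:14071-14139, minus strand), mt-Tc (MT:5192-5257, minus strand), mt-Tm (MT:3845-3913, plus strand) and mt-Tt (MT:15289-15355, plus strand). Capitals in mt-Tq mark the 3 bases that another annotated gene overlaps. All sequences were those of GENCODE M21 transcripts, on GRCm38.
mt-Tq: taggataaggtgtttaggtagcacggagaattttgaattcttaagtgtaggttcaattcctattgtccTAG
mt-Tp: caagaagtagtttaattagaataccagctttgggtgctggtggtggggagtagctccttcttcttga
mt-Te: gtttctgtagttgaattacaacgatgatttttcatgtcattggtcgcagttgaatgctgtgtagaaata
mt-Tc: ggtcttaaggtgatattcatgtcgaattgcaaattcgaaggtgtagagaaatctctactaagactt
mt-Tm: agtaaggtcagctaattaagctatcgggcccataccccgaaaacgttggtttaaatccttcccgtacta
mt-Tt: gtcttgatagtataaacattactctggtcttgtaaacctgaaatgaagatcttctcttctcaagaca

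Mitochondrially encoded genes held 179081 counts in library 1 and 160761 counts in library 2. This was 0.766% of all counts in library 1 (95% Wilson interval, 0.762% to 0.770%) and 0.391% in library 2 (0.389% to 0.393%), or 0.578% ± 0.265 (SD, n = 2). At least 10 counts in both libraries, the requirement for a gene to be called counted here, were found for 15 of the 37 genes, against 25% of all genes listed. The 15 were 11 of the 13 mRNA genes, both rRNA genes and 2 tRNA genes, mt-Tq and mt-Tp. The 13 mRNA genes took 86.4% of the mitochondrial counts in library 1 and 88.6% in library 2, the rRNA genes 13.5% and 11.2%, and the 22 tRNA genes 0.159% and 0.154%.

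Complex I (NADH dehydrogenase), which passes electrons from NADH to ubiquinone, has 7 mitochondrially encoded subunits. mt-Nd1 took 45135 and 35687 counts in libraries 1 and 2, which are 1930.4 CPM and 867 CPM. mt-Nd2 had 661 CPM and 176 CPM, mt-Nd4 658 CPM and 214 CPM, and mt-Nd5 508 CPM and 190 CPM (189.7). The minus-strand gene mt-Nd6 had 109 CPM and 36.8 CPM. The remaining subunit genes had few counts, with 21 and 10 counts for mt-Nd3 and 10 and 2 counts for mt-Nd4l.

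mt-Cytb encodes cytochrome b, the only mitochondrially encoded subunit of complex III, which passes electrons from ubiquinol to cytochrome c. It took 37023 and 45323 counts, which are 1583 CPM and 1102 CPM (1343 ± 341, SD, n = 2). Complex IV (cytochrome c oxidase) reduces oxygen and has 3 such subunits. mt-Co1, its catalytic subunit, had 26598 and 35438 counts, or 1138 CPM and 861 CPM (999 ± 195, SD, n = 2). mt-Co2, which receives electrons from cytochrome c, had 179 and 162 counts, or 7.66 CPM and 3.94 CPM, and mt-Co3 had 252 and 291 counts, or 10.8 CPM and 7.07 CPM. Complex V (ATP synthase) has 2 such genes, with 189 and 169 counts for mt-Atp6, a part of the proton channel, and 8 and 4 counts for mt-Atp8, a small accessory subunit.

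Levels of different genes were compared per length, in CPM per kilobase of the annotated gene. The order of the mRNA genes was the same in both libraries except at the top. mt-Nd1 led in library 1 (2017 CPM per kilobase, against 1384 for mt-Cytb) and mt-Cytb led in library 2 (963 against 906). Next came mt-Co1 (736 and 558), mt-Nd2 (637 and 169), mt-Nd4 (477 and 155), mt-Nd5 (278 and 104) and mt-Nd6 (210.5 and 71.0). The other 6 were mt-Co3 (13.7 and 9.02), mt-Atp6 (11.9 and 6.03), mt-Co2 (11.2 and 5.76), mt-Nd3 (2.58 and 0.698), mt-Atp8 (1.68 and 0.477) and mt-Nd4l (1.44 and 0.164). The 2 values of mt-Nd1 (1462 ± 785, SD, n = 2) spanned those of mt-Cytb (1174 ± 298), which lay above both values of mt-Co1 (647 ± 126.4). From mt-Co1 to mt-Nd6 each gene overlapped the next in this order, as did mt-Co3, mt-Atp6 and mt-Co2 among themselves and mt-Nd3, mt-Atp8 and mt-Nd4l among themselves. The gaps that no library bridged were those between mt-Cytb and mt-Co1, mt-Nd6 and mt-Co3, and mt-Co2 and mt-Nd3.

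**Figure D1:**
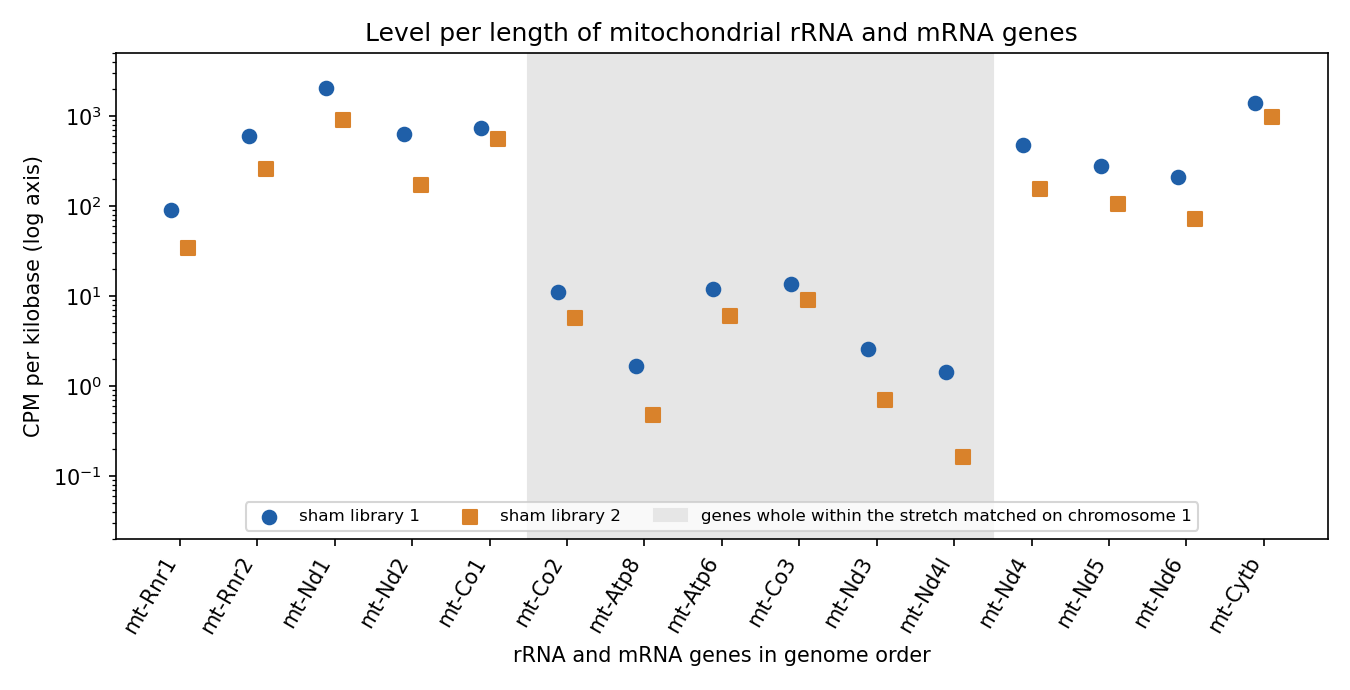
CPM per kilobase (log axis) of the 2 rRNA and 13 mRNA genes in genome order, with a point for each sham library. The 6 mRNA genes that lie whole within the grey stretch were between 1.44 and 13.7 in library 1 and between 0.164 and 9.02 in library 2, and the 7 other mRNA genes were between 210.5 and 2017 and between 71.0 and 963.

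The low mRNA genes were neighbours in the genome. The 6 mRNA genes from mt-Co2 to mt-Nd4l were the 6 lowest in each library, and their levels did not overlap those of the other 7, the lowest of which was mt-Nd6. They lie whole within MT:6394-11042, together with 5 tRNA genes that were at 0 in both libraries. These 11 genes held 659 counts in library 1 and 638 in library 2, or 0.368% and 0.397% of the mitochondrial counts, on a stretch that covers 30.1% of the annotated length of the genome.

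Matches to annotated nuclear transcripts were concentrated in this stretch. The share of 75-base windows, the length of a read, that also occur in an annotated nuclear transcript was 99.9% in mt-Co3, 99.5% in mt-Co2 and in mt-Atp6, 98.7% in mt-Nd4l and 97.8% in mt-Nd3. It was 61.5% in mt-Nd4 and 39.8% in mt-Co1, the genes at the ends of the stretch, 5.71% in mt-Nd2 and 1.66% in mt-Nd5. No such window was found in mt-Nd1, mt-Nd6, mt-Cytb, mt-Atp8 or either rRNA gene. Reads were sequenced in pairs and a window stands for a single read, so these shares do not show how pairs were placed. The matching transcripts are 7 pseudogenes on the minus strand of chromosome 1, at 1:24611535-24616197 (GRCm38, 4663 bases). Their order is that of the mitochondrial genes, and the gaps between them were nearly the same, for example 140 bases on both chromosomes between the mt-Co1 and mt-Co2 matches. mt-Atp8 lies in a gap of 233 bases on both chromosomes, for which chromosome 1 has no annotated transcript, and its sequence there was not read.

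The nuclear pseudogenes took counts of the same order as the low mitochondrial genes they match. Gm28437 had 438 counts in library 1 and 360 in library 2, beside the 252 and 291 of mt-Co3. Gm10925 had 254 and 234 counts beside the 189 and 169 of mt-Atp6, and Gm28661 had 119 and 114 beside the 179 and 162 of mt-Co2. Gm29216, which matches 31.0% of mt-Co1, had 180 and 206 counts, and Gm28439, which matches 63.6% of mt-Nd4, had 34 and 17. Gm28438 had 12 and 3 counts and Gm10222 had 8 and 4, beside mt-Nd3 and mt-Nd4l. The 7 pseudogenes summed to 1045 counts and 938 counts, or 10.8 and 5.495 CPM per kilobase, beside 210.5 and 71.0 for mt-Nd6. HTSeq leaves out reads that align to several places unless it is told otherwise, and the setting used here is not given in the sources used here. The values of the 5 genes with over 90% of windows matched are uncertain for this reason, as are those of mt-Co1 and mt-Nd4. Shares of counts that include these genes carry the same limit. The part of shared sequence in the low counts was not tested.

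**Figure D2:**
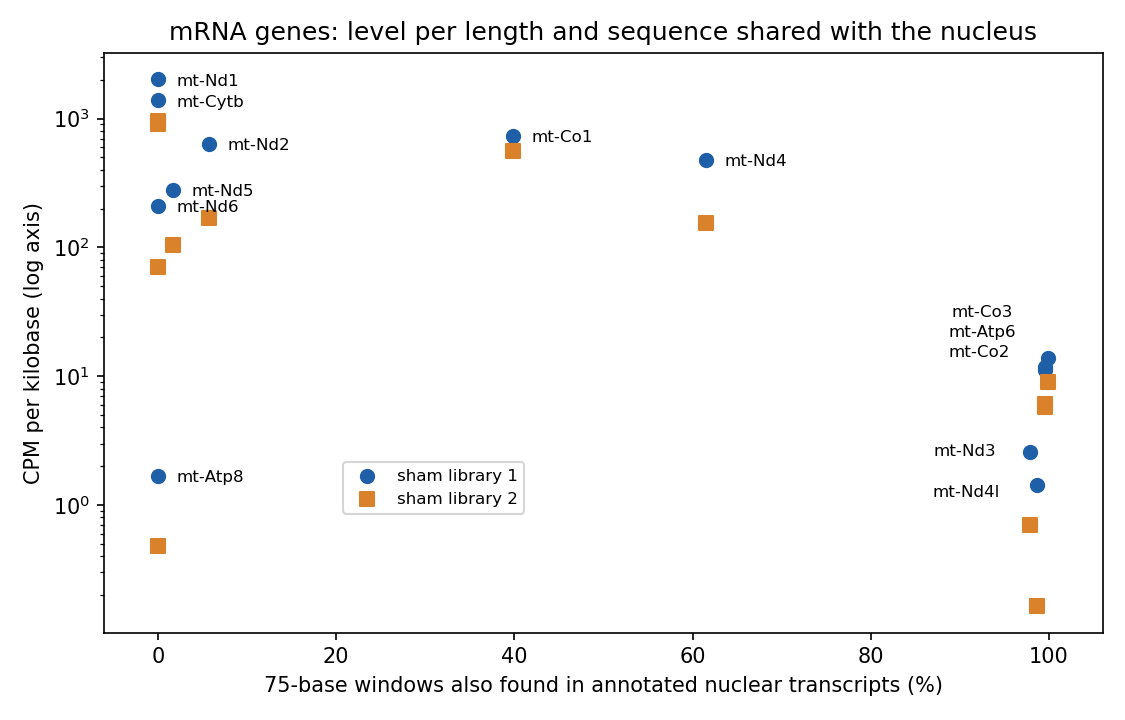
CPM per kilobase (log axis) of the 13 mRNA genes against the percent of their 75-base windows that also occur in an annotated nuclear transcript, with a point for each sham library. The 5 genes above 90% were at or below 13.7 in both libraries, and mt-Atp8, at 0%, was at 1.68 and 0.477.

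Across the 13 mRNA genes, the logarithm of the mean level per length and the share of matched windows had a Pearson's r of -0.624 and a Spearman's rho of -0.474, given as a description, since the genes share libraries and lie side by side in the genome. The median level per length of the 6 genes with under 10% of windows matched was 40.9 times that of the 5 genes with over 90% in library 1 and 23.7 times in library 2 (32.3 ± 12.1, SD, n = 2). mt-Atp8 was the exception among the genes with no window matched in an annotated transcript. The chromosome 1 sequence at its place was not read, so a match there is not known. mt-Atp8 is 204 bases long, its last 43 bases also belong to mt-Atp6, and 162 bases lie between mt-Tk and mt-Atp6.

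The rRNA genes were uneven. mt-Rnr2, the 16S rRNA of the large ribosomal subunit, had 22109 and 16735 counts, or 598 and 257 CPM per kilobase. mt-Rnr1, the 12S rRNA of the small subunit, had 2017 and 1331 counts, or 90.3 and 33.9 CPM per kilobase. The ribosome holds equal numbers of each, but mt-Rnr2 was 6.62 times mt-Rnr1 per length in library 1 and 7.59 times in library 2. mt-Rnr2 is followed downstream by mt-Nd1 with only mt-Tl1 between them, and mt-Nd1 was 3.37 and 3.53 times mt-Rnr2 per length.

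The comparison of rRNA with mRNA depended on how the mRNA genes were summarised. The 2 rRNA genes together had 407 and 173 CPM per kilobase, and the 13 mRNA genes together 580.1 and 304, so that the rRNA level was 0.701 times the mRNA level in library 1 and 0.570 times in library 2 (0.636 ± 0.0927, SD, n = 2). With the median over genes in place of the sums the ratio was 1.84, and against the mRNA genes with under 10% of windows matched it was 0.449. The direction was therefore below 1 by the sums and above 1 by the medians, though both include the 6 low genes. The cDNA was primed on poly(A), and the tails of these RNAs were not measured. This ratio, and that of mt-Rnr2 to mt-Rnr1, need not follow the amounts of the RNAs in the cells.

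mt-Nd6, the only mRNA gene on the minus strand, was compared in the same way with the 12 on the plus strand. Its level per length was 1.44 times their median in library 1 and 1.26 times in library 2 (1.35 ± 0.131, SD, n = 2), but 0.375 times the median of the plus-strand genes with under 10% of windows matched. That set still includes the low gene mt-Atp8, at 1.68 and 0.477 CPM per kilobase. On the opposite strand, mt-Nd5 overlaps mt-Nd6 by 14 bases. It had 278 and 104 CPM per kilobase, beside 210.5 and 71.0 for mt-Nd6. mt-Cytb, also on the plus strand and beyond mt-Te, was 6.58 and 13.6 times as high as mt-Nd6. Whether the counts distinguish strands was checked on 25 nuclear genes of at least 200 bases that are nested in an exon of an opposite-strand gene with at least 500 counts in both libraries. All 25 were at 0 in both libraries, where their length and the density of their hosts would give 4932 and 8179 counts. Reads over genes of opposite strands were thus not given to the nested gene. Counting by strand would also leave these genes at 0 in a library that keeps strand, where they are not expressed. The check alone therefore does not decide the question. The procedure used here does not keep strand, so counting by strand would have given these genes part of the reads over their hosts. All were at 0, so these reads were not divided by strand. The count of mt-Nd6 can therefore include antisense RNA of the plus-strand transcript.

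The 22 tRNA genes held 284 counts in library 1 and 248 in library 2, or 0.159% (0.141% to 0.178%) and 0.154% (0.136% to 0.175%) of the mitochondrial counts. These were almost all on the 8 minus-strand tRNA genes, which held 282 and 246 counts, mostly on mt-Tq and mt-Tp. The 14 plus-strand tRNA genes held 2 and 2. Because the library procedure does not keep strand, the counts of a tRNA gene can include RNA of the opposite strand. mt-Tq (glutamine) had 170 and 102 counts, mt-Tp (proline) 92 and 130, mt-Te (glutamate) 17 and 8, and mt-Tc (cysteine) 3 and 4. The other minus-strand genes were mt-Ta (alanine) with 0 and 2 counts, and mt-Tn (asparagine), mt-Ty (tyrosine) and mt-Ts1 (a serine tRNA), at 0 in both. On the plus strand, mt-Tf (phenylalanine), mt-Tl1 (a leucine tRNA), mt-Tm (methionine) and mt-Tt (threonine) had 1 count each in a single library, and the other 10 were at 0 in both. In all, 13 of the 22 were at 0 in both libraries, 5 of them within MT:6394-11042 and 8 of the 17 outside it. The 5 lie almost whole in the gaps between the annotated matches, so a match of their own is not known.

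**Figure D3:**
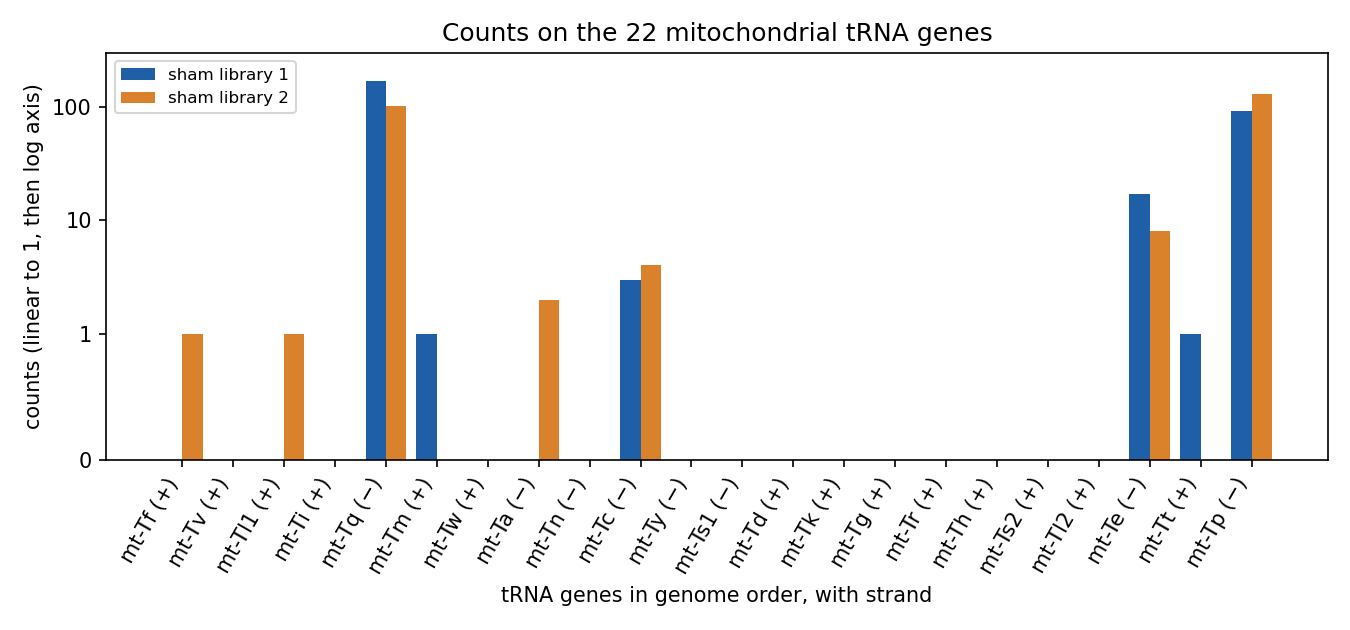
Counts of the 22 mitochondrial tRNA genes in genome order, with a bar for each sham library, the strand of each gene in parentheses and a count axis that is linear from 0 to 1 and logarithmic above. mt-Tq (170 and 102 counts) and mt-Tp (92 and 130 counts) stand above the others, and 13 genes have no bar.

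A read of 75 bases is at least as long as each of these tRNA genes. mt-Tq overlaps mt-Ti (isoleucine), at 0 in both libraries, by 3 bases and is followed by mt-Tm on the other strand, which had 1 and 0 counts. mt-Tp is the last gene before the control region, in which no gene is annotated, and its plus-strand neighbour mt-Tt, of equal length, had 1 and 0 counts. The counts of neighbouring tRNA genes thus differed by far more than counting error at nearly the same place in the genome. The room between the genes on either side was 70 bases for mt-Tq, 71 for mt-Tm and 67 for mt-Tt, each shorter than a read. No annotated gene follows mt-Tp. How reads that touch 2 genes were assigned is not given, so these counts need not follow the levels of the tRNAs. The minus-strand members had a median base composition of 29.0% A and 23.2% G, against 35.2% A and 13.5% G for the plus-strand members. mt-Nd6 had 22.2% A and no run of A longer than 3 bases, while mt-Nd2 and mt-Tr (arginine), the latter at 0 counts in both libraries, had runs of 8. mt-Rnr2, mt-Co1, mt-Nd4 and mt-Nd5 had runs of 7, and the highest mRNA genes per length, mt-Nd1 and mt-Cytb, runs of 6 and 5. The part of base composition in the levels was not tested.

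Between the mice, the mitochondrial genes were lower in library 2 than in library 1. All 15 counted genes had a CPM ratio of library 2 to library 1 below 1, against 61.5% of the 13445 genes counted. Of the 15, 9 were over 2-fold lower, against 25.9% of all counted genes. None was over 2-fold higher, against 5.74% of all counted genes. The median log2 ratio was -1.22 for the 15 genes and -0.26 for all counted genes, whose quartiles were -1.03 and 0.27. The summed mitochondrial level in library 2 was 0.510 times that in library 1 (95% exact interval, 0.507 to 0.514). Library 2 had the higher sums of neutrophil markers given above, and leaving those marker genes out of the totals gave a median of -1.13 and the same count of 9. With TMM or DESeq2 scaling, which moved the median of all genes to -0.01 and 0.01, 7 genes were over 2-fold lower, against 19.4% and 19.0% of all genes. These scalings shift every log2 ratio by 1 constant, so the median of the 15 lies 0.95 below that of all genes by construction under each. The part of neutrophil RNA in this difference was not tested.

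The difference was not equal among the genes and varied between the complexes. All 6 counted genes of complex I were over 2-fold lower in library 2, with log2 ratios of -1.15 for mt-Nd1, -1.42 for mt-Nd5, -1.57 for mt-Nd6, -1.62 for mt-Nd4, -1.89 for mt-Nd3 and -1.91 for mt-Nd2. With TMM or DESeq2 scaling mt-Nd1 was at -0.90 and -0.88 and no longer over 2-fold lower. The ratio for mt-Nd3 rests on 21 and 10 counts and has an interval of 0.114 to 0.600. mt-Co1 (-0.40) and mt-Cytb (-0.52) had the ratios nearest to 1 among the abundant genes, of 0.745 to 0.769 and of 0.686 to 0.705 by their intervals, and these do not overlap the 0.443 to 0.456 of mt-Nd1. mt-Co3 was at -0.61, mt-Co2 at -0.96 and mt-Atp6 at -0.98. The share of mitochondrial counts on complex I was 50.5% in library 1 and 37.98% in library 2. That on complex III was 20.7% and 28.2% and that on complex IV 15.1% and 22.3%. Of the 27029 and 35891 counts on complex IV, mt-Co1 held 26598 and 35438. mt-Co2, mt-Co3 and both genes of complex V (0.110% and 0.108%) lie within MT:6394-11042, as do mt-Nd3 and mt-Nd4l. The shares of the complexes thus depend on values that are uncertain. The rRNA genes lay within the range of complex I, at -1.22 for mt-Rnr2 and -1.42 (-1.415) for mt-Rnr1. Of the tRNA genes, mt-Tq was at -1.55, and mt-Tp was at -0.32 with an interval of 0.610 to 1.06 that includes no difference.

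**Figure D4:**
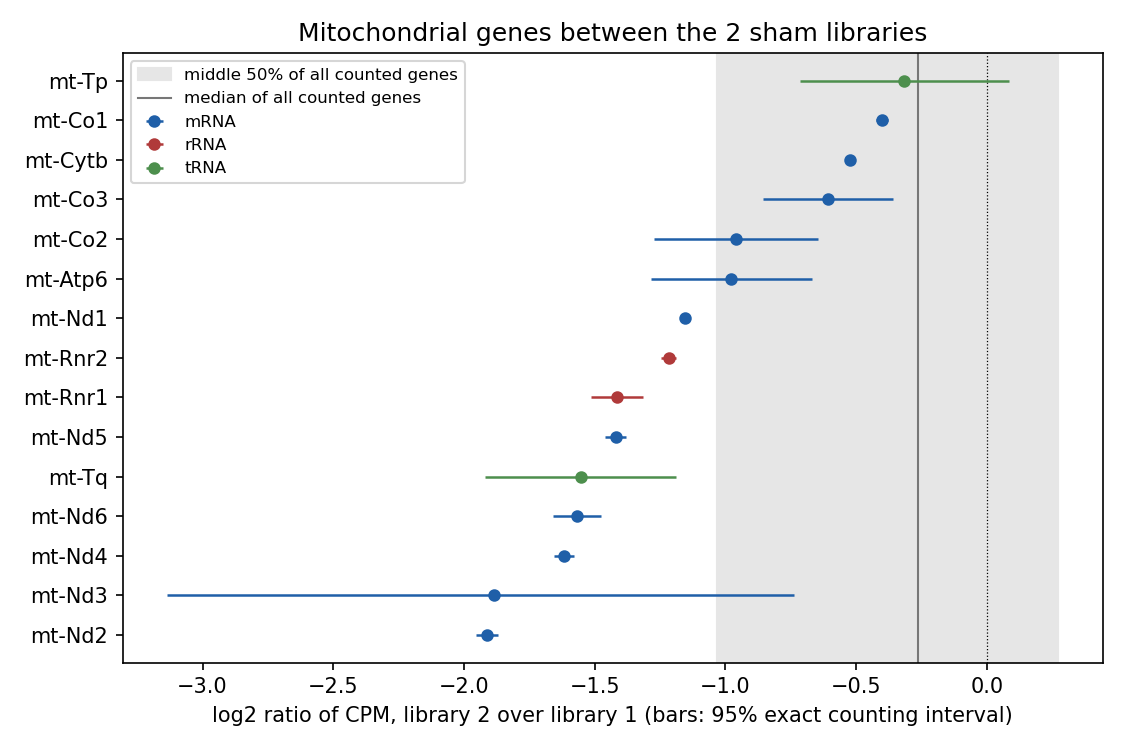
Log2 ratio of CPM in library 2 to CPM in library 1 for the 15 counted mitochondrial genes, with exact 95% counting intervals, the median of all counted genes as a grey line (-0.26) and their quartiles as a grey band (-1.03 to 0.27). All 15 points lie below 0, from -0.32 for mt-Tp to -1.91 for mt-Nd2. Of all counted genes, 61.5% lie below 0.

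Base composition moved with these ratios. Over the 13 counted mRNA and rRNA genes, whose GC content ran from 33.05% to 39.9%, the log2 ratio and the GC content had a Pearson's r of 0.863 and a Spearman's rho of 0.857. These genes share libraries and transcripts, so the values are a description. Over the 847 counted nuclear genes in the same GC range, r was 0.0364 and rho 0.0519. Those of under 36% GC (98 genes) had a median log2 ratio of -0.35 and nuclear genes of 38% to 40% (539 genes) one of -0.04. Why ratio and GC content moved together among the mitochondrial genes was not tested.

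**Figure D5:**
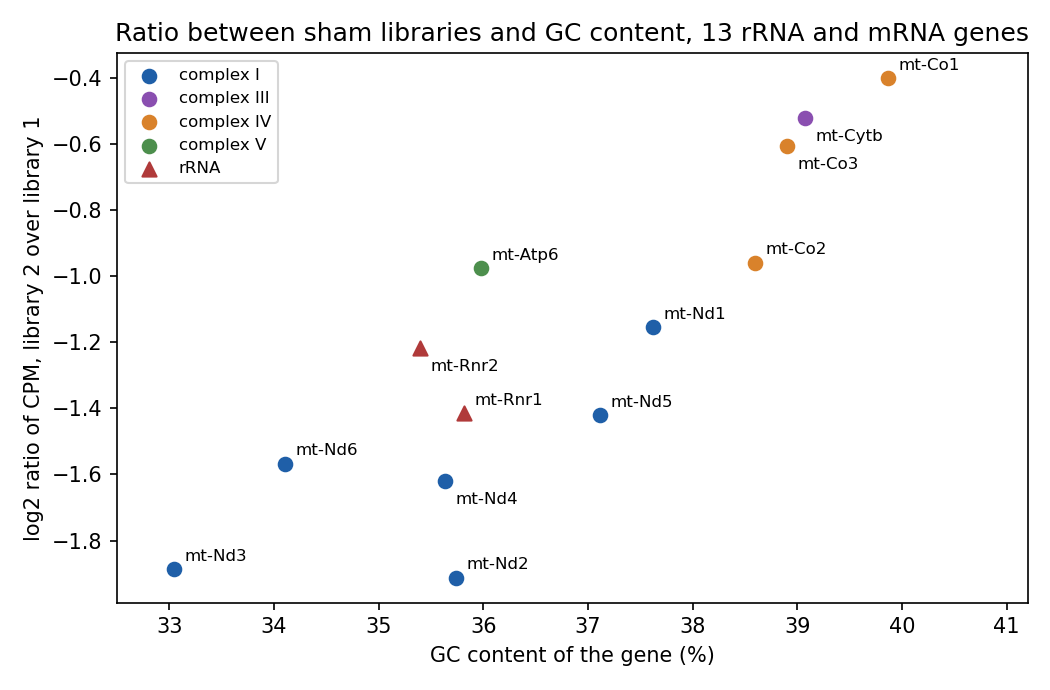
Log2 ratio of CPM in library 2 to CPM in library 1 against GC content in percent, with a point for each of the 13 counted mitochondrial mRNA and rRNA genes, coloured by complex. mt-Nd3 (-1.89) has the lowest GC content at 33.05% and mt-Co1 (-0.40) the highest at 39.9%, with the other points scattered about the rise between them.

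Genes of the nucleus that serve the mitochondrial genome were read beside it. Of the 16 genes listed for mitochondrial RNA synthesis and DNA maintenance, 15 were counted, with summed levels of 311 CPM and 318 CPM and a median log2 ratio of 0.26. Ssbp1, the mitochondrial single-stranded DNA binding protein, was highest at 50.4 ± 12.7 CPM (SD, n = 2). Of these, 2 were over 2-fold lower in library 2 and 1 was over 2-fold higher, against 25.9% and 5.74% of all counted genes. Polg, the catalytic subunit of the mitochondrial DNA polymerase, was the lowest in library 2 (-2.07, with 1184 and 495 counts) and Mterf1a, a transcription termination factor, was the only one over 2-fold higher (log2 ratio 1.196). Of the 17 genes listed for RNA processing and stability, 16 were matched to the annotation, Slirp was at 0 in both libraries and 15 were counted, with 431 CPM and 347 CPM and a median of -0.25. Of these, 4 were over 2-fold lower in library 2 and 0 higher, a share near the 25.9% of all counted genes that were lower, and Grsf1, an RNA granule protein that binds G-rich RNA, was the lowest at -1.95. Hsd17b10, a subunit of the mitochondrial RNase P, had both the highest level and the highest ratio, 0.53.

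The nuclear subunits of the respiratory complexes differed less between the libraries. All 30 listed genes were counted, against 25% of all genes, with sums of 4883 CPM and 5680 CPM. Their median log2 ratio was 0.26, against -0.26 for all counted genes. Of the 30, 0 were over 2-fold lower and 0 over 2-fold higher, against 25.9% and 5.74% of all counted genes. The extremes were Sdhc of complex II at 0.82 and Atp5g1, a ring subunit of ATP synthase, at -0.33, above the -1.22 median of the mitochondrially encoded genes. Atp5b, the catalytic subunit of ATP synthase, was highest at 844 ± 83.0 CPM (SD, n = 2), with a ratio of 0.20.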

How the data were processed

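The authors mapped reads of 2 sham libraries to GRCm38 with HISAT2, and HTSeq assigned them to Ensembl genes, according to the paper's methods and the submitters' processing notes, and the deposited values are raw counts without normalization. Tool versions, the annotation release, the overlap mode and the strand and multiple-alignment settings are not given in the sources used here. Libraries were prepared with a SMART-Seq HT kit and tagmentation. Depth was 23381026 counts in library 1 and 41142609 in library 2, so the same count gives a smaller relative level in library 2, and 2 libraries limit every mean.

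CPM was the count over the library total, scaled to 1000000. A gene was called counted where each library had 10 counts or more. Shares have 95% Wilson intervals and ratios exact intervals. The file's starts count from 0 and were converted to count from 1. All 37 mitochondrial genes had the span of GENCODE M21 (GRCm38), which gave transcript sequences, GC content and nuclear matches in windows of 75 bases, for 53620 of the 53801 identifiers. No genome sequence was used. Python 3.11.15, numpy 2.4.6, pandas 2.3.3, scipy 1.17.1 and matplotlib 3.10.9 were used, with edgeR 4.0.16 (TMM) and DESeq2 1.42.0 (size factors) in R 4.3.3 for other scalings only. The steps were tested on simulated data.

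The members and lists were chosen with earlier results of these data known. The text names all members, the gene of highest mean CPM and of largest ratio in each direction of each nuclear list, and the nuclear genes on the chromosome 1 stretch. Alternatives were other scalings, totals, filters, folds, gene lengths and summaries, and leaving out each library. The adjustment for GC content, the restriction to mRNA genes with under 10% of windows matched and the omission of mt-Atp8 were chosen after seeing the data. With 1 group, there was no test between groups.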

Additional observations from a re-analysis of the deposited data

How the results depend on the processing

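No paired analysis was possible because both libraries belong to 1 group. With 2 libraries, a value without either of them is the other library's own, which says nothing on stability. These ranges were 0.391% to 0.766% for the mitochondrial share of counts, 0.154% to 0.159% for the tRNA share of mitochondrial counts, 0.570 to 0.701 for rRNA over mRNA per length, 1.26 to 1.44 for mt-Nd6 over the plus-strand median, 23.7 to 40.9 for unmatched over matched genes and 15 to 17 for the number of genes counted. The median log2 ratio of library 2 to library 1 of -1.22 became -0.96 with TMM, -0.94 with DESeq2 size factors, -1.13 without neutrophil marker genes in the totals and -1.09 after the GC adjustment, and the summed log2 ratio of -0.97 became -0.71, -0.70 and -0.88 under the first 3. Without the filter on low counts, 37 genes were kept in place of 15 and 14 were over 2-fold lower in place of 9, because more genes entered. The rRNA to mRNA ratio of 0.636 became 1.84 as a median over genes and 0.449 against the mRNA genes with under 10% of windows matched, and the mt-Nd6 ratio of 1.35 became 0.375 against the latter and 1.504 with length minus read length plus 1. Apart from the last, which changes only the lengths, these settings change which genes or which summary enter the ratio. The mean of unmatched over matched genes was 32.3, and 43.1 without mt-Atp8. The GC adjustment used broad bins and subtracted nearly the same constant from each member, so it did not match GC content among them. The 15 gene ratios under 5 settings gave 75 values, of which 39 stayed within their counting interval, 36 moved and 0 reversed. The planned lengths from windows unique in the genome were not computed, as no genome sequence was used here. Below 10 counts, as in mt-Atp8 and most tRNA genes, depth limits any ratio.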

Other observations

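Beyond chromosome 1, annotated nuclear transcripts that match mitochondrial genes also held counts. On chromosome 2, Gm13340 had 44 counts in library 1 and 65 in library 2, Gm13341 had 31 and 27, and Gm13339 had 12 and 7. Gm11407 on chromosome 4 had 4 and 4 counts, and Gm4076 on chromosome 13 had 4 and 3. These genes were named after their values were seen. The longest exact match of an annotated nuclear transcript was 47 bases in mt-Cytb (Gm11410), 39 in mt-Nd6 and 65 in mt-Rnr2 (Gm20594), each shorter than a read of 75 bases.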
